A study of Mus musculus with 4 samples.

Results

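Lipocalins are small secreted proteins that carry hydrophobic molecules in a central cup. The lipocalin genes followed here were *Lcn2*, *Lcn5*, *Lcn6*, *Lcn8*, *Lcn9*, *Lcn10* and *Lcn12*, 7 of the 16892 genes in the count matrix, taken by name from a list of lipocalins with epididymal expression. The matrix held single-cell RNA-seq libraries from the duct that carries sperm away from the testis, cut into caput, corpus and cauda epididymis and vas deferens. The tissue came from adult male FVB/NJ mice of 10 to 12 weeks without any treatment or allele, and 8 pieces from 4 mice were pooled for each region, which gave 1 library per region and no replicate. Levels are therefore compared between libraries and cell groups with 95% intervals that cover counting error only, and no test between regions was possible.

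In the epididymis the lipocalins are made mainly by principal cells, the tall secretory cells that line the duct and set the composition of the fluid around maturing sperm. *Lcn5* encodes the epididymal retinoic acid-binding protein, and *Lcn8* encodes a second retinoid-binding lipocalin of the caput. *Lcn2*, known as neutrophil gelatinase-associated lipocalin, binds iron-laden bacterial siderophores and is induced in many epithelia during inflammation. *Lcn6*, *Lcn9*, *Lcn10* and *Lcn12* are further members of the family whose ligands are less well known.

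The caput, corpus, cauda and vas deferens libraries held 1433, 2325, 1616 and 3506 cells with 4408989, 6602962, 4882822 and 10744928 UMIs (unique molecular identifiers, each marking 1 captured mRNA). Principal cells made up 736, 929, 931 and 1360 of these cells. Levels are in UPM, the UMIs that a gene had in all cells of a group for every 1000000 UMIs counted in that group, and 3 UMIs in the principal cells of a library corresponded to 1.74, 2.11, 1.72 and 0.641 UPM. Of the 33 marker genes used to check the deposited cell types, 32 were highest in their own type, the exception being the basal marker *Itga6* with 268 UPM in endothelial and 245 UPM in basal cells. Between libraries, 43 cell barcodes recurred.

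The UMIs of the family were concentrated in the caput and corpus, in the corpus through *Lcn5*. That gene supplied 99.1% of the 28652 lipocalin UMIs of corpus principal cells and 32.7% of the 63838 of caput principal cells. Together the 7 genes took 3.70% (95% interval 3.68 to 3.73) of all principal-cell UMIs in the caput and 2.02% (2.00 to 2.04) in the corpus, against 0.0401% in the cauda and 0.00429% for the vas deferens. In the caput, 6 of 7 members had their highest level, whereas 22.2% of all genes with at least 20 UMIs in principal cells did. The members were chosen for epididymal expression, with earlier results of these data known. Shares of all genes, here and below, are therefore a scale for the counts and test nothing. *Lcn5* was the exception, with its highest level in the corpus, as for 33.6% of genes.

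From caput to vas deferens, *Lcn8* had 11638, 4.93, 1.15 and 0 UPM, from 20059, 7, 2 and 0 UMIs. *Lcn6* had 3146, 6.34, 0 and 0 UPM. *Lcn9* had 3109, 0, 0 and 0.427 UPM, the last from 2 UMIs. *Lcn10* was counted in the caput alone, at 900.5 UPM from 1552 UMIs. For these genes the caput stood far above every other library: by 2359-fold (1145 to 5868) over the corpus for *Lcn8* and by 496-fold (261 to 1085) for *Lcn6*. The corpus had no UMI of *Lcn9* or *Lcn10*. With the corpus set to 3 UMIs, the ratios were 1470.5 (503 to 7133) and 426 (145 to 2067).

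*Lcn2* had 5695, 99.4, 99.4 and 17.3 UPM along the same 4 libraries. The caput exceeded the cauda by 57.3-fold (49.3 to 67.0), and the intervals of corpus (83.7 to 117) and cauda (85.2 to 115) overlapped. A gene was called restricted when 1 library had 20 UMIs or more of it and a level 4-fold or more above each of the rest. By this rule 5 of 7 members were restricted all of them to the caput, compared with 6.61% of the 9122 genes that had 20 UMIs in their highest library, and 2.97% restricted to the caput.

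*Lcn5* and *Lcn12* were not restricted. *Lcn5* had 12122 UPM in the caput and 20008 in the corpus, a ratio of 1.65 (1.62 to 1.68) in favour of the corpus, then 1.72 for cauda and 9.18 for vas deferens. The order of caput and corpus was the opposite in 1 alternative. With only the subclusters that came at least 90% from 1 library, *Lcn5* was 2.45 times higher in the caput. *Lcn12* differed least between its highest and lowest library, at 428 UPM (397 to 460) in the caput, 76.1 (62.4 to 91.9) in the corpus, 298 (273 to 325) in the cauda and 16.0 (12.6 to 20.1) in the vas deferens.

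**Figure D1:**
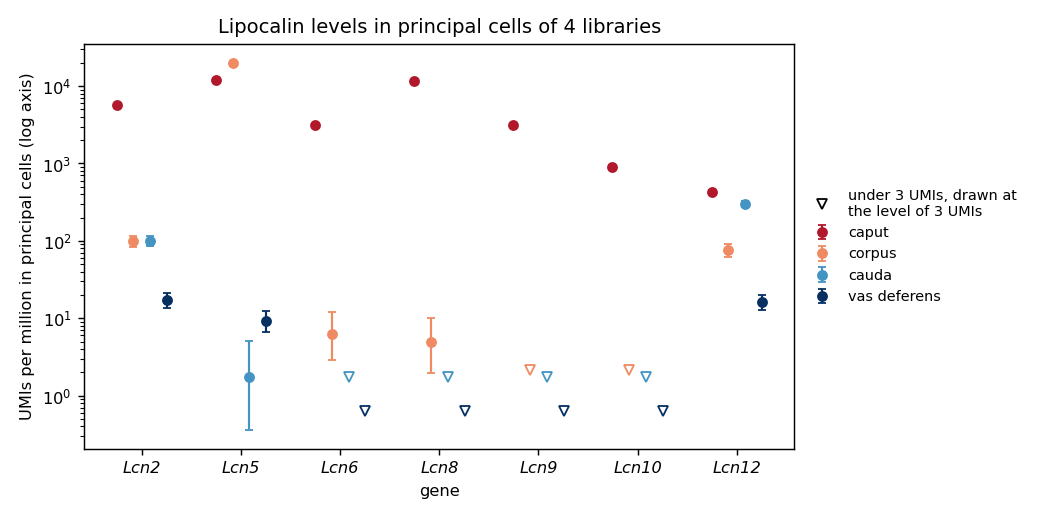
Level of each lipocalin in principal cells (y axis, UPM, log axis) in the caput, corpus, cauda and vas deferens libraries, with 95% counting intervals; open triangles mark fewer than 3 UMIs and are drawn at the level of 3 UMIs. *Lcn2*, *Lcn6*, *Lcn8*, *Lcn9* and *Lcn10* stood at 900 UPM or more in the caput and at 99.4 UPM or less elsewhere, *Lcn5* was high in caput and corpus, and *Lcn12* was present in all 4.

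All 7 genes lie on mouse chromosome 2 (GRCm38). *Lcn12* (25490845-25493911, minus strand), *Lcn8* (25653120-25656217), *Lcn5* (25657952-25661977), *Lcn6* (25676786-25681608), *Lcn10* (25682726-25686081) and *Lcn9* (25823153-25825537, all plus strand) share a stretch of 335 kb, and *Lcn2* (32384633-32388252, minus strand) lies 6559 kb further on. *Lcn8* and *Lcn5* are immediate neighbours with 1734 bases between them, yet one was at 4.93 UPM and the other at 20008 UPM in corpus principal cells. *Lcn6* and *Lcn10*, separated by 1117 bases, were both restricted to the caput.

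Of 18 other protein-coding genes within the stretch, 16 were in the matrix and 10 had at least 20 UMIs in principal cells. *Obp2a*, which encodes an odorant-binding lipocalin, and *Bmyc*, a relative of the *Myc* transcription factors, lie between *Lcn10* and *Lcn9*. Both were restricted to the caput too, at 139 and 834 UPM there, against 2.97% of all genes tested. *Lcn3*, *Lcn11* and *Obp2b*, 3 further lipocalins between *Bmyc* and *Lcn9*, had 4, 1 and 2 UMIs in all principal cells. Along the stretch, lipocalins with a handful of UMIs lay between lipocalins with 900 UPM or more in the caput.

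The 250 bases before an annotated start are shown for 5 members of the stretch. They were picked because these genes split into an initial caput group and a later one, *Lcn5*. The sequences are from RefSeq (GRCm38.p6, plus strand) and cover chr2:25652868-25653117 for *Lcn8*, chr2:25822903-25823152 for *Lcn9*, chr2:25676536-25676785 for *Lcn6*, chr2:25682476-25682725 for *Lcn10* and chr2:25657702-25657951 for *Lcn5*. Capitals mark matches to 5 motifs searched on both strands, and no matches overlapped.
Lcn8: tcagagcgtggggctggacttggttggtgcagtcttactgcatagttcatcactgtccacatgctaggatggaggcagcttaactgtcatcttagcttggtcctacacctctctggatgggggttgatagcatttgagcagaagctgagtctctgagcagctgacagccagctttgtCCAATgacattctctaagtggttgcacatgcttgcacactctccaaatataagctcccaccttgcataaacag
Lcn9: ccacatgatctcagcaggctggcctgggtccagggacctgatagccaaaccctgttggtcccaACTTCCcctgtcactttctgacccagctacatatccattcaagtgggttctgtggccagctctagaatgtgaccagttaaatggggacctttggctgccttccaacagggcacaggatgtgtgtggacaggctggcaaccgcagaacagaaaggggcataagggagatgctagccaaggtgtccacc
Lcn6: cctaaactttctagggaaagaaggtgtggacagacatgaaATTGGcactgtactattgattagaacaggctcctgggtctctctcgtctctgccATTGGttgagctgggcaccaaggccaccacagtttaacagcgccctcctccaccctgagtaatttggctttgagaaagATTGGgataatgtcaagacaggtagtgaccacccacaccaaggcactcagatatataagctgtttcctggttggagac
Lcn10: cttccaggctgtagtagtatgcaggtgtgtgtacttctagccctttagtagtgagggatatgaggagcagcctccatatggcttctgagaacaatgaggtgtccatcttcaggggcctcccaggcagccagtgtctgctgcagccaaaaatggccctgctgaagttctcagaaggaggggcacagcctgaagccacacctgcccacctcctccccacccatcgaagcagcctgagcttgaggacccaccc
Lcn5: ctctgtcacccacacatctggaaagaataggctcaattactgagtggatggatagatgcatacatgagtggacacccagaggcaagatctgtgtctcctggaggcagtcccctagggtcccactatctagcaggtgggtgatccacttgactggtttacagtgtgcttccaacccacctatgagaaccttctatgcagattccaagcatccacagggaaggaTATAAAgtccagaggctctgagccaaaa

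The TATA box letters, TATAAA, were found in *Lcn5*, starting 28 bases before the start 25657952, and in none of the other 6 members, against 12.4% of 32851 promoter windows of this length. The RefSeq records of *Lcn5*, *Lcn6* and *Lcn9* begin at 25657932, 25676638 and 25823088, inside the windows shown. The *Lcn8* window ends before its RefSeq start, 25653118. Motif positions therefore depend on the start used. CCAAT was found in *Lcn8* and, on the other strand and so printed as ATTGG, in *Lcn6*, and in 33.8% of all windows, and GGAAGT (ETS core) in *Lcn9*, printed as ACTTCC, and in 19.7%. TNTTTAC (FOXA core) and a 10-base NF-kB motif were in no member, and in 10.9% and 3.86% of all windows.

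The authors divided principal cells into 15 subclusters, which they ordered along the duct from principal 1 (initial segment) to principal 11 (end of the cauda), with principal 12 to 15 from the vas deferens. The subclusters were formed from the same counts, so the levels below describe them and test nothing. No member reached 4 times its level in each of the other 14 subclusters (0 of 7, against 0.2% of 5996 genes).

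*Lcn8* had 21169 UPM in principal 1, 10832 in principal 2 and 481 in principal 3, a drop of 22.5-fold (18.1 to 28.4) between the last pair. *Lcn9* had 4344, 3675 and 180 UPM in the same subclusters, and *Lcn10* 1370.2, 961 and 253 UPM with no UMI from principal 4 onward. *Lcn6* kept its level one step longer, with 5434, 2644 and 2484 UPM, the last 2 of which did not differ beyond counting error (ratio 1.06, 0.958 to 1.19), before it fell 100.3-fold (56.8 to 196) to principal 5, the next highest subcluster.

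*Lcn2* declined over 5 subclusters, at 9194, 5178, 4047, 426 and 229 UPM from principal 1 to 5. Among the remaining epididymal subclusters it lay between 51.3 UPM in principal 7 and 155 UPM in principal 11. *Lcn5* began low, with 572 UPM in principal 1 and 2202 in principal 2, rose to 34358 in principal 3 and 148338 in principal 4, and was 45644 in principal 5, 404 in principal 6 and 3041 in principal 7. *Lcn12* rose from 229 UPM in principal 1 to 509 and 914 in principal 2 and 3, lay between 58.7 and 139 in principal 4 to 7, and came back to 374, 362 and 227 in principal 8, 9 and 10.

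**Figure D2:**
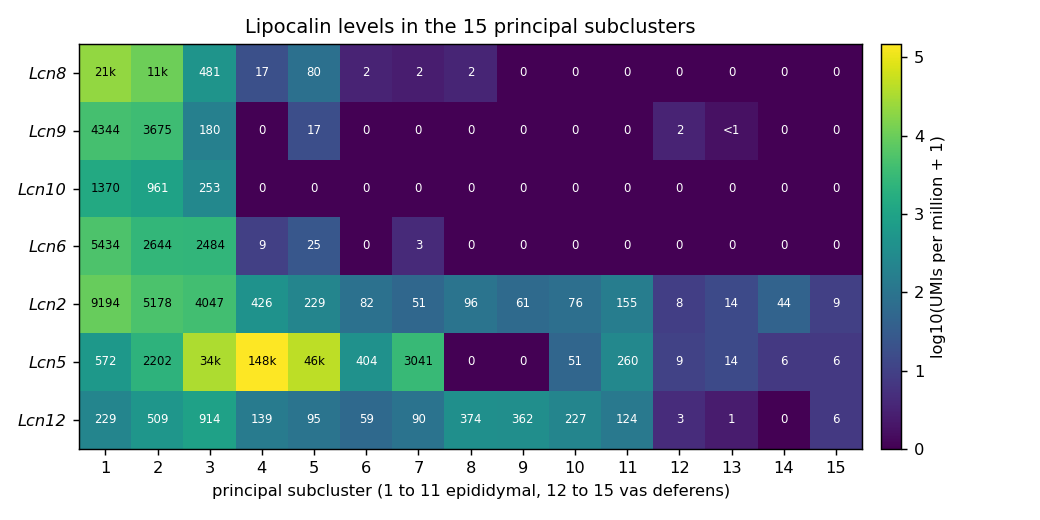
Levels of the 7 lipocalins (rows) in the 15 principal subclusters (columns, ordered along the duct), as UPM written in each cell (k stands for 1000) and as log10(UPM + 1) by colour. *Lcn8*, *Lcn9*, *Lcn10*, *Lcn6* and *Lcn2* are high from the left edge to principal 2 or 3, *Lcn5* peaks in principal 4 and *Lcn12* has a first peak in principal 3 and a second in principal 8 and 9.

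Over the 15 subclusters, log2(UPM + 10) of *Lcn8* and *Lcn9* correlated at r = 0.990, of *Lcn9* and *Lcn10* at 0.984 and of *Lcn6* and *Lcn10* at 0.979, whereas *Lcn5* correlated with the others at 0.320 to 0.603. The genes closest to *Lcn8* were *Defb25*, a beta-defensin, *Cst11*, a cystatin, and *Ly6g5c* (r = 0.994, 0.992 and 0.991). *Lcn9* was closest to *Rnase10*, a ribonuclease A relative of the initial segment (0.995), *Lcn6* to *Klrb1a* (0.988), *Lcn10* to *Cst6*, another cystatin (0.992), *Lcn2* to *Gja1*, the gap junction protein connexin 43 (0.977), *Lcn5* to *Defb21* (0.968) and *Lcn12* to *D730048I06Rik* (0.937). These points share libraries, and the clustering used the same genes.

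*Lcn8* was absent from many cells of the subclusters where it was most abundant. To set aside depth, each cell was thinned to 1000 UMIs and shallower cells were left out, which kept 82 of 144 cells of principal 1 and 168 of 353 cells of principal 2. In principal 1 the mean was 18.4 *Lcn8* UMIs per thinned cell and the highest cell had 89, yet 27 of 82 cells had none, so that 67.1% (55.8 to 77.1) of cells were positive (54.2% without thinning). In principal 2, with a mean of 10.8 UMIs, 78 of 168 cells had none and 53.6% (45.7 to 61.3) were positive (47.3% without thinning).

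*Lcn2* and *Lcn6* were less abundant in UMIs per cell but more evenly spread. In principal 1 each was found in 80 of 82 cells (97.6%, 91.5 to 99.7) at a mean of 8.95 and 5.38 UMIs. As the background, 8.20% of caput basal cells had *Lcn8* and 2.46% had *Lcn6* at the same depth. The median depth before thinning was 1613 UMIs in principal 1 cells and 5488 in caput basal cells.

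*Lcn9* was found in the same cells as *Lcn8*. In principal 1, 50 cells had both, 5 had *Lcn8* alone, 6 had *Lcn9* alone and 21 had neither. In principal 2 the numbers were 82, 8, 4 and 74. Cells with both genes and cells with neither made up most cells of each subcluster. Whether either subcluster held cells of more than 1 segment of the caput was not tested, which limits what the shares and ratios for cells with and without *Lcn8* describe.

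**Figure D3:**
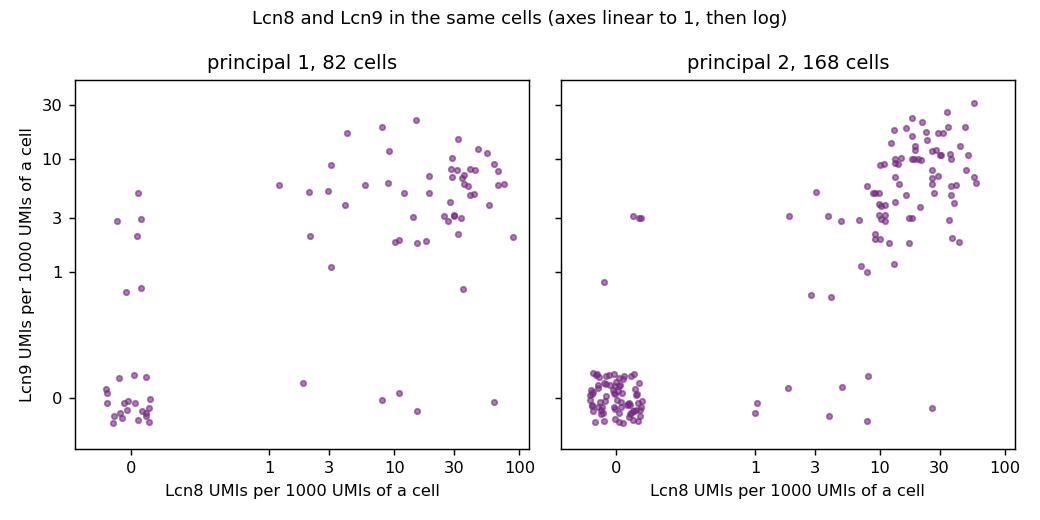
UMIs of *Lcn8* (x axis) and *Lcn9* (y axis) per 1000 UMIs of a cell in principal 1 (82 cells) and principal 2 (168 cells), 1 point per cell with a small random offset; both axes are linear up to 1 and logarithmic above. A group of 21 and 74 cells lies at 0 for both genes, and a group of 50 and 82 cells has both.

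The other members differed between cells with and without *Lcn8*. In principal 2, all UMIs of each cell counted, *Lcn9* had 7260.5 UPM in the 90 cells with *Lcn8* and 99.7 UPM in the 78 cells without (ratio 72.8, 52.9 to 103), and in principal 1 it had 5897 and 513 UPM (11.5, 9.08 to 14.8). *Lcn12* went the other way, with 232 UPM in cells with *Lcn8* and 837 UPM in cells without in principal 2, and 134 and 498 UPM in principal 1. *Lcn12* was therefore 3.61-fold (2.84 to 4.62) and 3.71-fold (2.52 to 5.50) higher where *Lcn8* was not found.

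*Lcn5* was also higher in cells without *Lcn8*, by 1.68-fold (1.50 to 1.88) in principal 2 and 1.61-fold (1.22 to 2.10) in principal 1. *Lcn6* and *Lcn10* were close to even in principal 1 (ratios of cells with to cells without *Lcn8* of 1.08 and 0.922, both intervals spanning 1) and somewhat higher with *Lcn8* in principal 2 (1.26 and 1.65). *Lcn2* was 2.33-fold (2.18 to 2.50) higher with *Lcn8* in principal 2 and 0.925 times as high in principal 1. The genes most like *Lcn6*, *Lcn8*, *Lcn9* and *Lcn10* over the subclusters, picked from the same counts, were also compared. In principal 2, *Gm5916* had 1768 UPM with *Lcn8* and 21.0 without, *Rnase10* 3324 and 157 and *Ly6g5c* 3908 and 312. *Defb25* had 8147 and 693 UPM and *Cst11* 15877 and 3098. The rest differed less: *Klrb1a* was 1.89, *Spag11b* 1.17, *Pabpc1l* 1.01, *Cst6* 0.609 and *Hopx* 0.532 times as high with *Lcn8*.

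In principal 1 *Gm5916* differed less, by 5.99-fold, as did *Ly6g5c* (2.79-fold), *Defb25* (2.76-fold), *Cst11* (1.61-fold) and *Rnase10* (1.47-fold). The rest lay between 0.324 (*Cst6*, 0.157 to 0.658) and 2.83 (*Klrb1a*, 0.846 to 14.8) times as high with *Lcn8*. Cells with *Lcn8* were deeper, with median totals of 5343 against 4668 UMIs in principal 1 and 3625 against 2647 in principal 2. The part of depth in these ratios was not tested. Called doublets were 0 and 0 cells in principal 1, and 4 and 3 in principal 2.

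*Lcn5* made up 14.8% of all UMIs of principal 4, a subcluster of 19 caput and 55 corpus cells. No cell of it lacked *Lcn5*: the lowest had 7.56% of its UMIs from this 1 gene, the median 14.3% and the highest 23.4%. In principal 5, with 67 caput and 172 corpus cells, every cell had *Lcn5* as well, from 0.668% to 11.1% with a median of 4.70%.

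In principal 3, which came from the caput alone, 51 of 151 cells were at 0 without thinning. The median was 1.64% and the highest cell had 12.5%. Its cells were shallow, with a median depth of 565 UMIs, and after thinning 3 of 45 cells had none. The part of depth in these zeros was not tested. In thinned cells *Lcn5* was found in 42 of 45 cells of principal 3 (93.3%, 81.7 to 98.6; 66.2% without thinning), 40 of 40 of principal 4 and 105 of 105 of principal 5 (both 100% without thinning), against 9.02% of caput and 8.29% of corpus basal cells. Levels within a subcluster were also compared between libraries, which tests nothing, since the subclusters were formed from the same counts. In principal 4 *Lcn5* had 155416 UPM in caput and 146561 UPM in corpus cells (ratio 1.06, 1.02 to 1.10). In principal 5 it had 52657 and 41525 UPM (1.27, 1.23 to 1.30). There *Lcn2* was 3.70-fold (2.45 to 5.69) and *Lcn8* 20.4-fold (6.45 to 104) higher in caput cells, with 3 *Lcn8* UMIs in corpus cells.

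**Figure D4:**
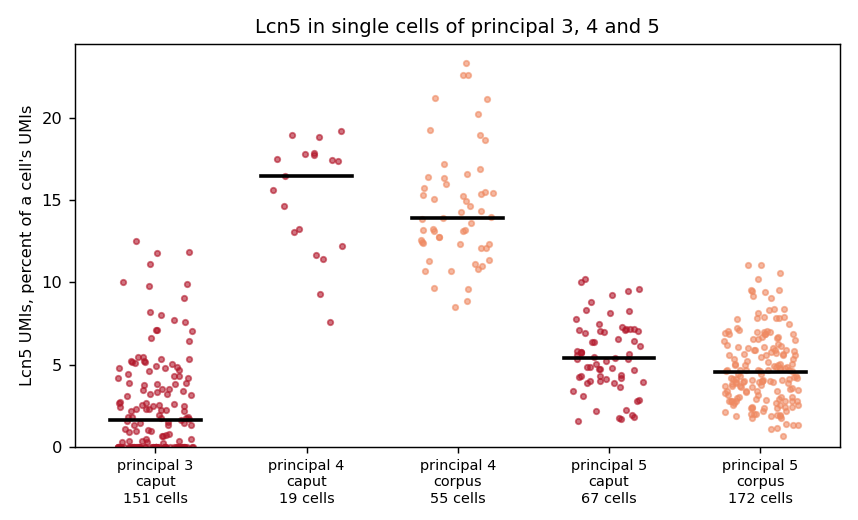
*Lcn5* UMIs as a percentage of each cell's UMIs (y axis) in principal 3, 4 and 5, split by library, with 1 point per cell and a bar at the median. Every cell of principal 4 lies at 7.56% or above. Without thinning, as drawn, zeros occur in principal 3 alone, where the median depth was 565 UMIs.

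Beyond the border *Lcn5* was left in a minority of corpus cells. In principal 7 it was found in 26.1% (18.4 to 34.9) of 119 thinned cells (26.3% without thinning), and the 10% of cells with most UMIs held 84.6% of its UMIs. In principal 6 the share was 9.35% (5.07 to 15.5; 6.45% without thinning), which is within the range of corpus basal cells. Principal 11 held 94 *Lcn5* UMIs in 3 of its 244 cells, but its 141 cauda cells had 1 of them and its 100 vas deferens cells had none, so that the rest came from its 3 corpus cells.

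*Lcn12* was the member with the highest level in cauda principal cells. In thinned cells it was found in 62.2% (46.5 to 76.2) of principal 3, 25.0% of principal 2, 20.7% of principal 1, 18.4% (13.2 to 24.7) of principal 8 and 18.5% (11.1 to 27.9) of principal 9 (28.5%, 20.7%, 22.2%, 16.1% and 31.0% without thinning). Basal cells had it in 0.820% in the caput and 0.588% in the cauda. Principal 9 held 3 corpus, 100 cauda and 26 vas deferens cells, and *Lcn12* had 354 UPM in its cauda cells and 364 UPM in its vas deferens cells (ratio 0.970, 0.677 to 1.41).

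Within the library where each was highest, 6 of 7 members were at least 4 times higher in principal cells than in every other type with 20 cells or more, against 2.75% of genes in the caput and 1.85% in the corpus. The ratios to the next type ran from 48.5 (*Lcn8*, endothelial cells) to 79.3 (*Lcn6*, basal cells) for *Lcn5*, *Lcn6*, *Lcn8* and *Lcn9*. *Lcn10* and *Lcn12* stood 42.5-fold (14.5 to 206) and 20.2-fold (6.88 to 98.1) above the level that 3 UMIs would give in endothelial cells. Neither was counted there. *Lcn2* was the exception.

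*Lcn2* was higher in basal cells, the flat cells at the base of the epithelium, than in the pooled principal cells of all 4 libraries. In the caput this did not hold for each subcluster, since principal 1 had 9194 UPM. From caput to vas deferens, basal cells had 7716 UPM (7571 to 7862), 2672 (2607 to 2737), 1819 (1735 to 1907) and 1715 (1646 to 1786). The basal level exceeded the principal level by 1.35-fold (1.32 to 1.39), 26.9-fold (22.8 to 32.0), 18.3-fold (15.6 to 21.5) and 99.1-fold (79.4 to 125). From caput to vas deferens, *Lcn2* fell to 1715 from 7716 UPM in basal cells and to 17.3 from 5695 UPM in principal cells.

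The gene was found in most basal cells of every region. At 1000 UMIs per cell it was present in 95.9% (92.6 to 98.0), 84.2% (80.2 to 87.6), 72.4% (65.0 to 78.9) and 70.6% (65.4 to 75.3) of basal cells from caput to vas deferens (93.4%, 91.6%, 90.7% and 85.0% without thinning), compared with 7.53%, 6.11%, 1.30% and 6.34% of stromal cells. Principal cells of the corpus, cauda and vas deferens had it in 6.94%, 8.31% and 1.68%. In the corpus and the vas deferens the principal share was near or below the stromal share. Most stromal *Lcn2* UMIs of the vas deferens were in secretory stromal cells, so the stromal share is no measure of background there. Whether the principal-cell UMIs were background was not tested.

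In the corpus and cauda *Lcn2* was at least 4 times higher in basal cells than in every other type, which 0.658% and 0.844% of genes were. In the caput and vas deferens, where 0.905% and 0.42% of genes were, it was not. In the vas deferens endothelial cells came next, at 506 UPM and 21.7% of cells (14.7 to 30.1), and the basal level was 3.39-fold (2.96 to 3.90) above them. Caput endothelial cells had 1779 UPM, but 7 of 50 cells held all 252 UMIs and a single cell held 68.7% of them. Within basal cells *Lcn2* was highest in the low-UMI basal cells of the caput, at 18489 UPM, against 6975 UPM in the main and 2815 UPM in the *Notch2*-high basal cells there. The paper leaves it unclear whether basal cells with few UMIs are a real population or a technical artifact.

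**Figure D5:**
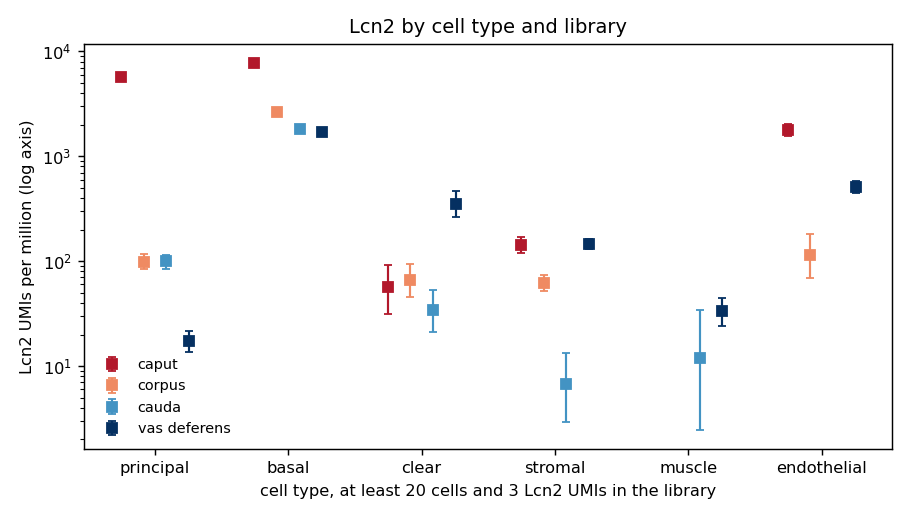
*Lcn2* level (y axis, UPM, log axis) in each cell type of the caput, corpus, cauda and vas deferens libraries, with 95% counting intervals, for types with at least 20 cells and 3 UMIs. Basal cells lie at 1715 UPM or more in all 4 libraries, and principal cells do so in the caput alone.

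The mix of lipocalins separated *Lcn2* from the rest. In the caput, *Lcn2* supplied 15.4% of the 63838 lipocalin UMIs of principal cells and 94.8% of the 11482 of basal cells. It supplied 8.29% of the 181 of clear cells, 19.4% of the 619 of stromal cells and 3.61% of the 83 of immune cells. In endothelial cells it supplied 77.8% of 324, and a single cell held 68.7% of those *Lcn2* UMIs. The other 6 members were all 0.00866 to 0.0185 times as high in caput basal as in caput principal cells, where *Lcn2* was 1.35 times as high. Among those 6 genes *Lcn5* supplied 53.1% of basal, 60.8% of clear, 72.3% of stromal and 38.7% of principal UMIs, and *Lcn8* supplied 26.6%, 25.9%, 14.6% and 37.1%. In caput stromal cells 241 of the 361 *Lcn5* UMIs came from called doublets, and in corpus basal cells 342 of 677 did.

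The lists below were compared with the members over the same libraries. Of 22 other lipocalin genes 15 were in the matrix and 5 had at least 20 UMIs in principal cells. Of the 4 with 20 UMIs in their highest library, *Obp2a* alone was restricted, to the caput (240 of its 243 principal-cell UMIs). Among all genes tested, 6.61% were restricted to a library and 2.97% to the caput. *Ptgds*, which encodes the lipocalin-type prostaglandin D synthase and neighbours *Lcn12*, was the most abundant, with 1427, 4037, 12008 and 240.0 UPM in principal cells from caput to vas deferens. *Ptgds* was highest in the cauda, where 6 of 7 members were at 99.4 UPM or less. *Apod*, *Apom* and *C8g* had 93, 61 and 75 UMIs and differed by 1.55-fold or less between their highest and next library.

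Of 19 genes for retinoid and siderophore handling, 10 had 20 UMIs or more in principal cells. Of the 9 with 20 UMIs in their highest library 2 were restricted, against 6.61% of all genes tested. *Crabp2*, a cellular retinoic acid-binding protein, was restricted to the cauda (118 UPM, 4.2-fold over the corpus), where 0.614% of all genes were. *Lrp2*, the endocytic receptor megalin, had 1.16, 173, 276 and 23.5 UPM, the lowest in the caput where the family was highest. *Aldh1a1*, which makes retinoic acid, had 367, 399, 593 and 98.7 UPM, and *Slc22a17*, a proposed *Lcn2* receptor, had between 3.84 and 9.28 UPM.

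Of 10 regulators 9 were in the matrix and 8 had 20 UMIs or more. Of these 8, the ETS factors *Etv4* and *Etv5* were restricted to the caput (22.0 and 74.8 UPM), against 2.97% of all genes tested. *Etv4* was highest in principal 2 and *Etv5* in principal 1. *Cebpb* had 467, 168, 145 and 64.1 UPM. Over the genes with 20 UMIs in their highest library, the median ratio of the highest to the next library was 2.33 for 8 regulators, 1.54 for 9 ligand genes and 2.26 for 4 relatives, beside 1.35 for all genes tested.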

How the data were processed

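Droplet-based single-cell RNA-seq was performed on dissociated cells of each region. The deposited matrix holds counts: whole UMIs per gene and cell, which the authors obtained with HISAT2 2.0.4 on mm10 and with ESAT on RefSeq genes, ignoring reads of several origins. The authors then removed ambient RNA with a modified SoupX, and 3.54% of the UMIs per cell recorded before that step are absent from the matrix. The size factor deposited per cell, a signal relative to the mean cell, was computed by the authors with scran within broad cell types and served here in 1 alternative. Cell types and subclusters are the deposited annotation, and the principal subclusters were numbered after the paper by their cell numbers.

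UMIs were summed per group with Python 3.11.15, numpy 2.4.6 and scipy 1.17.1. Levels have exact Poisson intervals, ratios exact conditional binomial intervals, and shares of cells or UMIs exact (Clopper-Pearson) intervals, all at 95% and for counting error alone. Shares were computed after thinning each cell to 1000 UMIs without replacement. Doublets were called per library from simulated doublets (178 cells, 2.00%). No test between regions was run, since each region is 1 library. The rule for restricted genes was tested on simulated data. All members are named. Of the fixed lists the genes that passed the rule and abundant ones are named, with the genes most like each member among those with 50 UMIs or more. Lcn8-positive cells were compared with negative ones after their counts had been seen. The values of some list genes are not reported here. The members and lists were chosen with earlier results of these data known.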

Additional observations from a re-analysis of the deposited data

Results flagged for a closer look

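Between neighbouring libraries, some cell types went opposite ways for the same gene, with counting intervals on opposite sides of 1. With 1 library per region none of these differences was tested.

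From caput to corpus, *Lcn5* was 1.65 times as high (1.62 to 1.68) in principal cells and 1.23 times as high (1.07 to 1.41) in basal cells, but 0.362 times as high (0.310 to 0.423) in stromal cells and 0.327 times as high (0.147 to 0.674) in endothelial cells. In the caput 66.8% of the *Lcn5* UMIs of stromal cells were in called doublets, and caput endothelial cells had 29 *Lcn5* UMIs in 4 cells.

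From cauda to vas deferens, *Lcn2* was 0.174 times as high (0.132 to 0.228) in principal cells, but 10.2 times as high (6.02 to 18.1) in clear cells and 21.5 times as high (10.8 to 50.1) in stromal cells. In the vas deferens the 53 clear-cell UMIs came from 15 of 38 cells, 46 of them in the low-UMI clear cells, and 237 of the 367 stromal UMIs were in secretory stromal cells. The part of other cell types, doublets and depth in these values was not tested.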

How the results depend on the processing

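With 1 library per region, differences between libraries have no replicate error, and a region cannot be told apart from its library. Of the 225 values computed under an alternative, 182 were close to the main value (within 1.5 times for a count or ratio, within the 95% interval for a share and for basal over principal cells), 42 moved and 1 changed direction. With the ratios of single genes set aside, 51 values were close and 25 moved. The count of 5 restricted members, the count of 6 members highest in the caput and the count of 6 members highest in principal cells were within 1.5 times of these values under every alternative run. The exception in direction was *Lcn5*, 2.45 times higher in the caput than in the corpus when each library was limited to subclusters with at least 90% of their cells from it.

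That limit gave the 7 genes 3.33%, 0.226% and 0.00270% of principal-cell UMIs in caput, corpus and vas deferens, so the corpus share rests on the border subclusters. Without the 50 most abundant genes in the total, the shares were 5.43%, 2.81%, 0.0666% and 0.00610% from caput to vas deferens. As a mean over cells they were 3.60%, 1.98%, 0.0291% and 0.00846%. With totals before ambient removal they were 3.49% and 1.87% in caput and corpus, without doublets 3.74%, 2.07% and 0.00369% in caput, corpus and vas deferens, and with cells of at least 1000 UMIs 3.76% and 0.00371% in caput and vas deferens. Size factors give no share of UMIs and were not run for it.

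The count of members at least 4 times every other subcluster was 1 rather than 0 with size factors or without the 50 most abundant genes, and 2 with a 2-fold rule. *Lcn2* supplied 95.4% of caput basal lipocalin UMIs without doublets. Of the 21 genes named as most alike, 6 remained with Spearman correlation, 12 with a pseudocount of 1 UPM and 11 in the 11 epididymal subclusters, so these names depend on the measure. In alternatives chosen after seeing the data, *Lcn2* stayed higher in basal than in pooled principal cells, by 1.22 to 1.37 times in the caput, and by 151 times in the vas deferens without doublets. No paired analysis was possible because each region had a single library.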

Other observations

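Several members were counted in the same cells of principal 1 to 3. In principal 1, *Lcn9* and *Lcn10* were together in 43.9% of cells, where the product of their separate shares was 42.5%. *Lcn5* and *Lcn8* were together in 14.6% against 15.5%. *Lcn8* and *Lcn9* were above their product (61.0% against 45.8%), and *Lcn8* and *Lcn12* below it (8.54% against 13.9%). At 1000 UMIs per cell, at least 4 of the 7 lipocalins were counted in 81.7% of principal 1, 60.7% of principal 2 and 42.2% of principal 3 cells, and in no cell of principal 4 or 5, where *Lcn5* was at its highest. In the caput, 74 of the 74 *Lcn5* UMIs of immune cells were in 1 of 11 cells, which was not among the called doublets.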
